A study of Mus musculus with 55 samples.

Results

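The 9 genes described here encode the Kv4 channels of the A-type potassium current and their KChIP and DPP partners. They were taken by name from the 22800 gene symbols of the count table, as 3 Kv4 subunits (Kcnd1, Kcnd2, Kcnd3), 4 KChIPs (Kcnip1 to Kcnip4) and 2 DPP6-like proteins (Dpp6, Dpp10). All 9 were present in the table. The data are from individual pyramidal neurons of mouse prefrontal cortex, whose cytosol was drawn into a patch pipette and made into a Nextera XT sequencing library. The labels give 6 Fmr1-/y D1, 7 Fmr1-/y D2, 15 wild-type (WT) D1 and 26 wild-type D2 cells that passed quality control. Fmr1-/y males carry no functional Fmr1 on their X chromosome, make no FMRP, an RNA-binding regulator of translation, and model fragile X syndrome; the labels say of the WT cells only that they carry no knockout and name no strain. The names D1 and D2 follow dopamine receptor types, and the sources used here do not say how the neurons were assigned to them. The Fmr1-/y D1 cells came from mice of 31 (1 cell) and 32 days (5 cells) and the Fmr1-/y D2 cells from mice of 32 days (7 cells). The WT D1 cells came from mice of 28 to 34 days and the WT D2 cells from mice of 29 to 35 days, with 0 WT D1 and 2 WT D2 cells at 32 days. Age and genotype thus overlap too little to be told apart, and every D1 cell carries side label 2 and every D2 cell side label 1. The labels do not name the animals, so each group counts as 1 sample, no p-value is given, and every SD and interval describes these cells alone.

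Kv4 subunits form tetrameric channels that open at subthreshold voltages and inactivate fast, and in pyramidal neurons they carry much of the A-type current of the dendrites, which limits back-propagating action potentials. KChIPs are calcium-binding proteins that attach to the Kv4 N-terminus and alter surface expression and inactivation. DPP6 and DPP10 are single-pass membrane proteins without peptidase activity that speed Kv4 gating. Kcnd2 mRNA is a described target of FMRP.

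A cell's total count lay between 260943 and 10673072, and the group medians were 4922872 in Fmr1-/y D1, 5712484 in Fmr1-/y D2, 2805992 in WT D1 and 3940766 in WT D2 cells. A read in at least 4000 genes, called gene-rich here, was found in 6 of 6 Fmr1-/y D1, 6 of 7 Fmr1-/y D2, 9 of 15 WT D1 and 13 of 26 WT D2 cells. The knockout groups thus held almost only gene-rich cells, and group differences are also given for the 34 gene-rich cells. Fmr1 itself had reads in 0 of 6 Fmr1-/y D1, 0 of 7 Fmr1-/y D2, 8 of 15 WT D1 and 13 of 26 WT D2 cells. The receptor genes, looked at only to check the labels, were sparse. Drd1 had reads in 0 of 6 Fmr1-/y D1, 3 of 7 Fmr1-/y D2, 4 of 15 WT D1 and 2 of 26 WT D2 cells, and Drd2 had none in any of the 54 cells. D1 and D2 are therefore used as the labels give them. All 6 pyramidal markers had reads in every group, with a summed level per cell of 766 to 1559 CPM (a gene's reads scaled to the cell's total count) in Fmr1-/y D1, 498 to 3040 in Fmr1-/y D2, 128 to 3006 in WT D1 and 718 to 4397 in WT D2 cells. Markers of other cells were present as well. The summed astrocyte markers reached 965 CPM in Fmr1-/y D1, 797 in Fmr1-/y D2, 10647 in WT D1 and 9346 in WT D2 cells, and the oligodendrocyte markers 2433, 11094, 13691 and 11147 CPM in the same order of groups. The 8 interneuron markers summed to a median of 0.428 CPM in Fmr1-/y D1, 44.1 in Fmr1-/y D2, 0.398 in WT D1 and 9.8 in WT D2 cells. Their sum reached 49.9, 320, 327 and 832 CPM in the same order of groups.

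Kcnd2 and Dpp10 were both lower in WT D1 than in WT D2 cells, and the sequences just upstream of their starts are shown for that reason. Each is the 250 bases before the RefSeq transcription start (GRCm38.p6), in lower case with CG dinucleotides in capitals; that of Kcnd2 lies at chr6:21215096-21215345 on the plus strand and that of Dpp10 at chr1:124045560-124045809 on the minus strand.
Kcnd2: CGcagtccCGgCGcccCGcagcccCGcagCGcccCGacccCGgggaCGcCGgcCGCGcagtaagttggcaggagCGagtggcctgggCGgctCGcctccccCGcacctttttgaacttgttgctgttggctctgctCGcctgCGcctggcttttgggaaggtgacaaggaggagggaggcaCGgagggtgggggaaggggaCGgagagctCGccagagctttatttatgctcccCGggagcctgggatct
Dpp10: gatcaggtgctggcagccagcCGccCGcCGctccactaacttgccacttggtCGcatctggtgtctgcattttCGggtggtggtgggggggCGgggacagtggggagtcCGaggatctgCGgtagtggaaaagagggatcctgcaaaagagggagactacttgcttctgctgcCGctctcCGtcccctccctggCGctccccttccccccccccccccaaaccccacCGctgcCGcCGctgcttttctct
The Kcnd2 window holds 22 CG dinucleotides and is 68.8% G or C, and the Dpp10 window holds 14 and is 65.2% G or C, against medians of 6 CG and 52.4% over 32851 RefSeq promoters of the same length. Neither window holds TATAAA or the cyclic AMP response element TGACGTCA on either strand, which 12.4% and 1.55% of these promoters hold; the letters say nothing about which factors act there. Of the 9 members, 8 had an entry in the RefSeq promoter table.

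Kcnd1 (ENSMUSG00000009731, chromosome X, 7822289 to 7838280 on GRCm38) encodes Kv4.1, a Kv4 subunit of low abundance in brain. It had reads in 1 of 6 Fmr1-/y D1, 0 of 7 Fmr1-/y D2, 3 of 15 WT D1 and 3 of 26 WT D2 cells. All Fmr1-/y D1 reads lay in cell 6, at 2146 reads or 237 CPM. The highest WT cells had 10.5 CPM among D1 and 74.6 CPM among D2 cells, so that Kcnd1 was at 0 in 47 of the 54 cells.

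Kcnd2 (ENSMUSG00000060882, chromosome 6, 21215503 to 21729805) encodes Kv4.2, the main Kv4 subunit of pyramidal cell dendrites. It had reads in 3 of 6 Fmr1-/y D1 cells (50%, exact 95% interval 11.8 to 88.2%), 4 of 7 Fmr1-/y D2 cells (57.1%, 18.4 to 90.1%), 3 of 15 WT D1 cells (20%, 4.33 to 48.1%) and 12 of 26 WT D2 cells (46.2%, 26.6 to 66.6%). In Fmr1-/y D1 cells 1 to 6 the levels were 0, 12.2, 86.3, 0, 0 and 210 CPM, and in Fmr1-/y D2 cells 1 to 7 0, 69.3, 148, 14.9, 0, 1.30 and 0 CPM. The 15 WT D1 cells ran from 0 to 151 CPM with a median of 0, and the 26 WT D2 cells from 0 to 358 CPM, also with a median of 0. Among WT D1 cells only cell 12, at 151 CPM, was above 2 CPM. The WT contrast lay in the gene-rich cells, of which 3 of 9 WT D1 and 11 of 13 WT D2 cells had a Kcnd2 read, while 0 of 6 and 1 of 13 of the other WT cells had one.

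Kcnd3 (ENSMUSG00000040896, chromosome 3, 105452330 to 105674002) encodes Kv4.3, which in cortex is found in pyramidal cells and interneurons. It had reads in 4 of 6 Fmr1-/y D1, 6 of 7 Fmr1-/y D2, 9 of 15 WT D1 and 11 of 26 WT D2 cells. Its mean level was 39.4 ± 49.5 CPM in Fmr1-/y D1 (SD, n = 6), 43.2 ± 46.4 in Fmr1-/y D2 (n = 7), 107 ± 177 in WT D1 (n = 15) and 45.5 ± 82.5 in WT D2 cells (n = 26). The SD is larger than the mean in each group, and the ranges of all groups overlap. Of its 9587 merged exon bases, 165 are shared with the antisense gene Kcnd3os, and the sources used here do not say whether counting used strand.

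**Figure D1:**
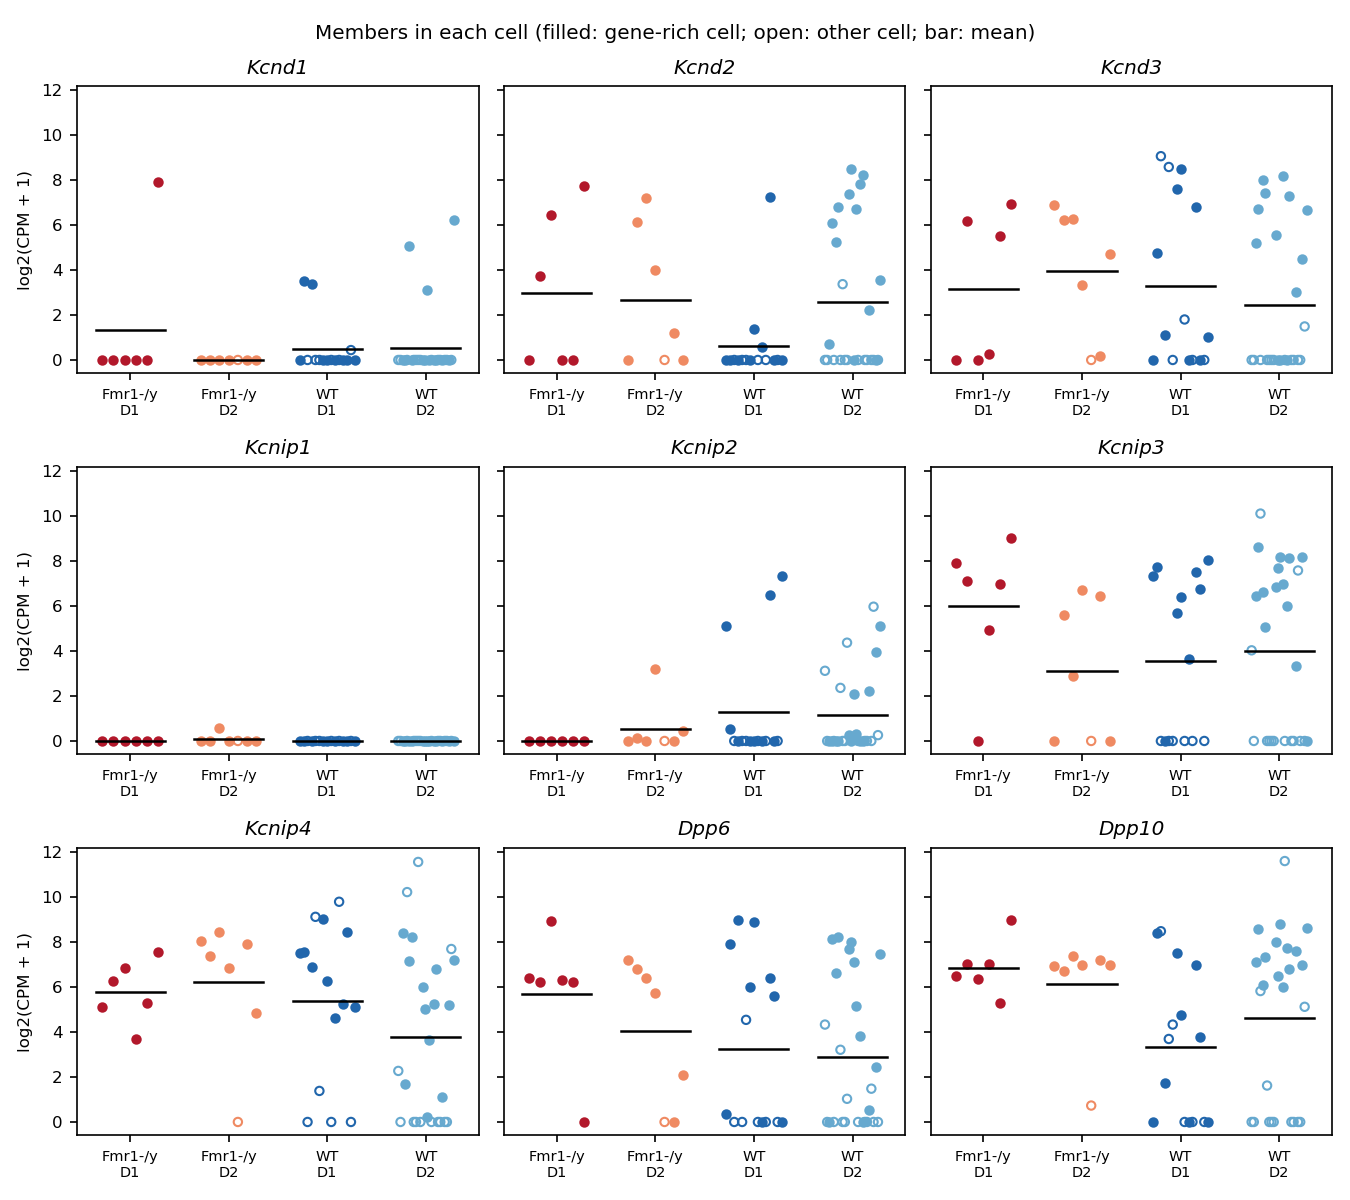
Level of each of the 9 members in every cell on the log2(CPM + 1) scale (vertical axis), by group, for 6 Fmr1-/y D1, 7 Fmr1-/y D2, 15 WT D1 and 26 WT D2 cells; filled points are gene-rich cells, open points other cells, and bars group means. In each WT group every member has cells at 0, and Kcnip1 has a read in 1 cell of all 54.

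Kcnip1 (ENSMUSG00000053519, chromosome 11, 33629339 to 33993152) encodes KChIP1, found in cortex mainly in interneurons. It had 2 reads in all, both in Fmr1-/y D2 cell 3, and none in the 6 Fmr1-/y D1, 15 WT D1 or 26 WT D2 cells. At 0 of 26 cells the exact 95% interval allows a share with a read of up to 13.2% in WT D2 cells. In the cell with the 2 reads Gad1 and Gad2 were at 0 and the 8 interneuron markers summed to 2.41 CPM.

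Kcnip2 (ENSMUSG00000025221, chromosome 19, 45791839 to 45816061) encodes KChIP2, which is known best from heart, where it raises Kv4 surface expression. It had reads in 0 of 6 Fmr1-/y D1, 3 of 7 Fmr1-/y D2, 4 of 15 WT D1 and 11 of 26 WT D2 cells. Levels reached 8.13 CPM in Fmr1-/y D2, 159 CPM in WT D1 and 61.7 CPM in WT D2 cells. In the summed counts it had 40.4 CPM in WT D1 cells (exact 95% Poisson interval 38.8 to 42.1), and Fmr1-/y D1 cells were at least 435-fold lower against a floor of 3 counts over the group. Those WT D1 reads came from 4 of the 15 cells, and the exact interval for 0 of 6 Fmr1-/y D1 cells reaches 45.9%. Cell 15 held 1654 of the 2252 reads, and without it the WT D1 level was 13.2 CPM and the bound 142-fold.

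Kcnip3 (ENSMUSG00000079056, chromosome 2, 127456498 to 127522094) encodes KChIP3, also known as the calcium-regulated repressor DREAM and as calsenilin. It had reads in 5 of 6 Fmr1-/y D1, 4 of 7 Fmr1-/y D2, 8 of 15 WT D1 and 15 of 26 WT D2 cells. In Fmr1-/y D1 cells 1 to 6 there were 241, 137, 0, 29.4, 123 and 525 CPM, and the Fmr1-/y D2 cells 0, 48.2, 6.50, 104, 0, 85.5 and 0 CPM. Wild-type D1 cells ran from 0 over a median of 11.5 to 260 CPM and WT D2 cells from 0 over 24.1 to 1101 CPM. All 4 ranges start at 0 and overlap; among gene-rich cells the gene was read in 8 of 9 WT D1 and 12 of 13 WT D2 cells.

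Kcnip4 (ENSMUSG00000029088, chromosome 5, 48389502 to 49524907) encodes KChIP4, one splice form of which slows Kv4 inactivation. It was read in 6 of 6 Fmr1-/y D1, 6 of 7 Fmr1-/y D2, 12 of 15 WT D1 and 17 of 26 WT D2 cells, and in all 34 gene-rich cells. Levels in Fmr1-/y D1 cells 1 to 6 were 33.0, 76.9, 115, 11.8, 37.6 and 188 CPM, and the Fmr1-/y D2 cells 260, 167, 348, 114, 0, 237 and 27.5 CPM. Wild-type D1 cells ran from 0 over a median of 76.5 to 882 CPM and WT D2 cells from 0 over 7.68 to 3028 CPM. The highest cells of both WT groups were not gene-rich, and the group ranges overlap. Of 3627 merged exon bases, 168 and 99 are shared with 5730480H06Rik and Gm20700 on the opposite strand.

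Dpp6 (ENSMUSG00000061576, chromosome 5, 26817203 to 27727505) encodes the auxiliary subunit best known for shaping the dendritic A-type gradient of hippocampal pyramidal cells. It was read in 5 of 6 Fmr1-/y D1, 5 of 7 Fmr1-/y D2, 8 of 15 WT D1 and 15 of 26 WT D2 cells. Mean levels were 134 ± 179 CPM in Fmr1-/y D1 (SD, n = 6), 56.7 ± 59.0 in Fmr1-/y D2 (n = 7), 95.7 ± 172 in WT D1 (n = 15) and 59.0 ± 99.0 in WT D2 cells (n = 26). The mean in Fmr1-/y D1 cells leaned on cell 3, at 493 CPM, while 4 other cells lay between 73.0 and 83.1 CPM and cell 6 was at 0.

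Dpp10 (ENSMUSG00000036815, chromosome 1, 123321471 to 124045559) encodes the paralog of DPP6, prominent in cortex. It was read in 6 of 6 Fmr1-/y D1, 7 of 7 Fmr1-/y D2, 9 of 15 WT D1 (60%, exact 95% interval 32.3 to 83.7%) and 17 of 26 WT D2 cells (65.4%, 44.3 to 82.8%). The Fmr1-/y D1 cells had 87.5, 130, 81.8, 127, 37.9 and 504 CPM, and the Fmr1-/y D2 cells 121, 105, 165, 127, 0.654, 148 and 127 CPM. Wild-type D1 cells ran from 0 over a median of 11.9 to 357 CPM and WT D2 cells from 0 over 65.6 to 3108 CPM. In gene-rich cells Dpp10 was steady from cell to cell outside WT D1: 6 of 6 Fmr1-/y D1, 6 of 6 Fmr1-/y D2 and 13 of 13 WT D2 cells had it, with SDs of 1.22, 0.23 and 0.93 log2 units between cells. Gene-rich WT D1 cells stood apart with reads in 6 of 9 cells and an SD of 3.42 log2 units, though their range of 0 to 341 CPM overlaps the 63.9 to 438 CPM of the WT D2 cells.

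**Figure D2:**
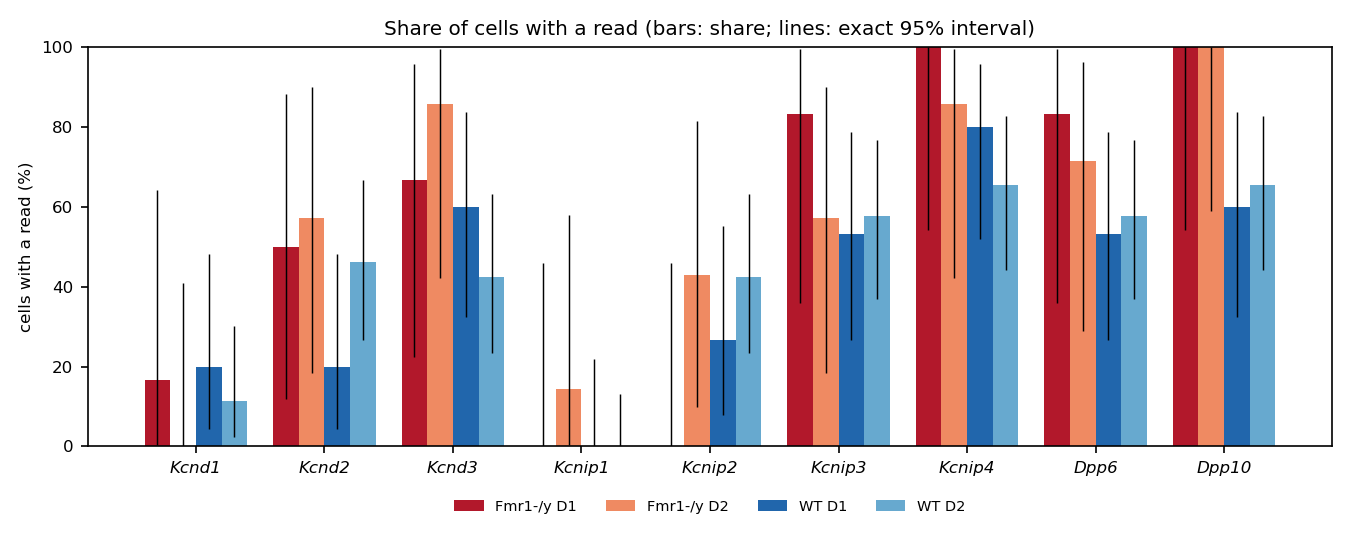
Percent of cells with at least 1 read of each member (vertical axis), by group, with exact 95% intervals as lines (n = 6 Fmr1-/y D1, 7 Fmr1-/y D2, 15 WT D1, 26 WT D2 cells). Over all 54 cells Kcnip4 and Dpp10 are read most often and Kcnd1 and Kcnip1 least, and the intervals of the groups overlap for every member.

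Between genes, levels were compared as mean CPM per kilobase of merged exons. Kcnip4 had the highest level in Fmr1-/y D2 (45.4), WT D1 (54.4) and WT D2 cells (59.9), whereas in Fmr1-/y D1 cells Kcnip3 was first at 49.6 and Kcnip4 second at 21.2. In the WT D2 cells the lead of Kcnip4 came from mean CPM; by summed counts Kcnip3 had 42.6 and Kcnip4 42 CPM per kilobase. That mean rests on WT D2 cell 10, which is not gene-rich, and without it Kcnip4 was at 28.9. Kcnip3 was at 35.7 over all 26 WT D2 cells. Without its own highest cell, WT D2 cell 5, which is also not gene-rich, Kcnip3 was at 24.7. The order of these genes in WT D2 cells thus turned with the cells left out. The 2 genes together made up 62.5% of the family's per-kilobase level in Fmr1-/y D1, 70.5% in Fmr1-/y D2, 70.5% in WT D1 and 72.3% in WT D2 cells. The channel subunits stood lower: Kcnd2 reached 9.98 in Fmr1-/y D1, 6.48 in Fmr1-/y D2, 1.98 in WT D1 and 10.4 in WT D2 cells, and Kcnd3 4.11, 4.51, 11.2 and 4.75 in the same order of groups. Dpp6 had 10.8, 4.59, 7.75 and 4.78 and Dpp10 10.2, 7.18, 4.55 and 14.2 in that order. The gap between Kcnd2 and Kcnd3 was within the larger of their SDs over cells in each group. The gap between Kcnip4 and Kcnip3 was within it in both WT groups and in Fmr1-/y D1 cells. Without Fmr1-/y D1 cell 6, the highest for both genes, Kcnip3 was at 29.9 and Kcnip4 at 15.1 in that group. Within cells, Kcnip3 was above Kcnip4 in CPM in 5 of 6 Fmr1-/y D1 and 0 of 6 Fmr1-/y D2 cells with a read of either, and in 4 of 12 WT D1 and 11 of 18 WT D2 cells; the merged exons of these 2 genes are of nearly the same length (3546 and 3627 bases).

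**Figure D3:**
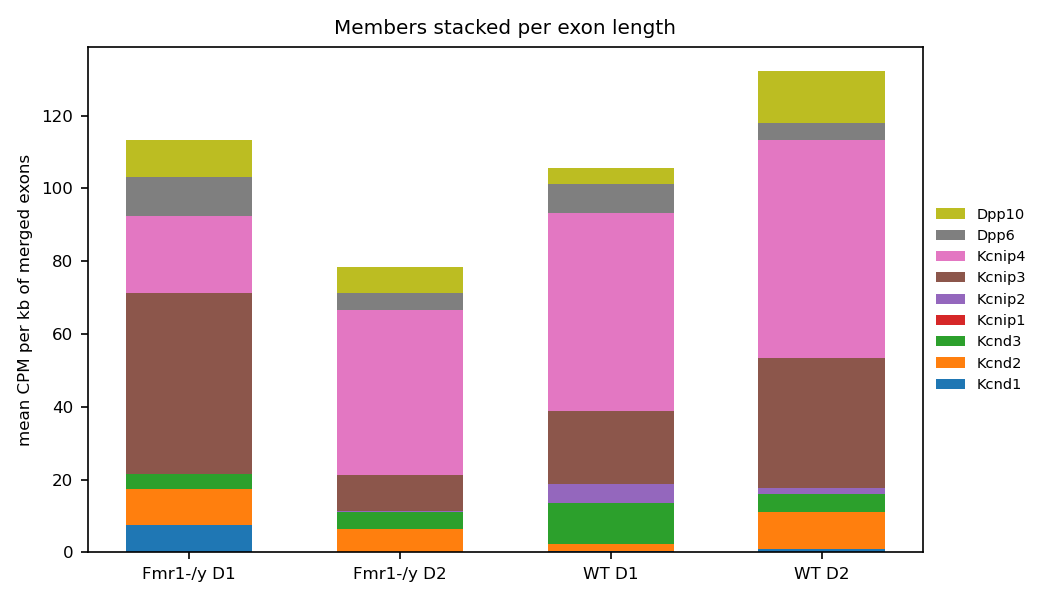
Mean CPM per kilobase of merged exons (vertical axis), stacked over the 9 members, for each group. Kcnip3 and Kcnip4 fill most of each bar, with Kcnip3 at 49.6 in Fmr1-/y D1 and Kcnip4 at 45.4, 54.4 and 59.9 in Fmr1-/y D2, WT D1 and WT D2 cells.

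At least 1 Kv4 subunit, 1 KChIP and 1 DPP6-like gene were read together in 5 of 6 Fmr1-/y D1, 6 of 7 Fmr1-/y D2, 6 of 15 WT D1 and 14 of 26 WT D2 cells. In gene-rich cells this was so in 5 of 6 Fmr1-/y D1, 6 of 6 Fmr1-/y D2, 5 of 9 WT D1 and 13 of 13 WT D2 cells. The gene-rich WT D1 cells that lacked a class lacked a Kv4 subunit (2 of 9 cells) or both DPP6-like genes (2 of 9 cells), never the KChIPs. Kcnd2 and Kcnd3 were read in the same cell in 17 of the 34 gene-rich cells, Kcnd2 alone in 4 and Kcnd3 alone in 9. Kcnip3 was read without Kcnip4 in 1 of all 54 cells and Kcnip4 without Kcnip3 in 10; both DPP6-like genes were read in 29 cells, Dpp6 alone in 4 and Dpp10 alone in 10.

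Differences between groups are those between their cell averages of log2(CPM + 1), a scale that understates differences of genes with few reads. A gene counts as measured with a mean of at least 1 CPM over the cells compared and reads in 10% of them or more, and as past the threshold at 1 log2 unit or more.

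Wild-type D1 cells were set against WT D2 cells as the labels give them. Since the D1 and D2 labels coincide with the side labels, receptor class and side cannot be told apart. Kcnd2 and Dpp10 were lower in WT D1 than in WT D2 cells and Kcnip4 was higher. Kcnd2 averaged 10.2 ± 39.0 CPM in WT D1 and 53.3 ± 99.8 CPM in WT D2 cells (SD, n = 15 and 26), a difference of -1.95, below which 1.48% of the measured genes lay. Dpp10 averaged 71.7 ± 124 CPM in WT D1 and 225 ± 603 CPM in WT D2 cells, a difference of -1.32. Without WT D2 cell 16, which is not gene-rich and held 9215 of the 23719 Dpp10 reads, the WT D2 mean was 109 ± 136 CPM (n = 25) and the difference -1.04. Without WT D1 cell 12 the Kcnd2 mean in WT D1 cells was 0.15 CPM. Kcnip4 differed by 1.64, although its mean CPM was 197 ± 265 in WT D1 and 217 ± 622 in WT D2 cells; 12 of 15 WT D1 and 17 of 26 WT D2 cells had a read. Of the 8 measured members (all but Kcnip1), 1 was higher and 2 were lower past the threshold, where 9.21% of the 11059 measured genes were higher and 13.2% lower. The other 5 differed by -0.45 (Kcnip3) to 0.82 (Kcnd3), and the median was 0.04 over the members and -0.14 over all measured genes. Relative to the median gene the counts were the same, where 12% of genes were higher and 10.2% lower. As a log2 ratio of mean CPM, Kcnip4 was at -0.14, and at 0.91 without WT D2 cell 10.

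In gene-rich cells the contrast was wider for both lower members: Kcnd2 differed by -3.84 and Dpp10 by -3.72 between 9 WT D1 and 13 WT D2 cells. Gene-rich cells still differed in the number of genes read. Across the 34 gene-rich cells of all groups, Spearman's rho with that number was 0.51 for Dpp10 and 0.27 for Kcnd2. Its part in the wider contrast was not tested. Kcnd2 averaged 17 ± 50.3 CPM in the WT D1 and 106 ± 121 CPM in the WT D2 cells there, and Dpp10 76.5 ± 119 and 203 ± 129 CPM. Kcnd3 was at -1.51 in these cells, against 0.82 over all cells, Kcnip2 at 1.08 and Kcnip4 at 1.67, so that 2 members were higher and 3 lower, where 11.1% of genes were higher and 33.4% lower and the median gene was at -0.48. With each age left out in turn the gene-rich difference ran from -4.93 to -3.13 for Kcnd2 and from -4.89 to -3.10 for Dpp10, but for Kcnip4 from 0.82 to 2.21, for Kcnd3 from -2.83 to -0.15 and for Kcnip2 from 0.54 to 1.97.

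Both kinds shared 4 ages. Kcnd2 differed over all cells by -4.29 at 29 days (4 D1 and 6 D2 cells), -1.77 at 30 days (3 and 7), 2.18 at 31 days (3 and 3) and -1.12 at 34 days (2 and 2). Dpp10 differed by -3.68, -1.26, 2.76 and -3.80 at the same ages, and Kcnip4 by 2.37, 0.17, 4.72 and 2.00. Both lower members were thus higher in D1 cells at 31 days, the age at which the median measured gene was also higher, by 1.35; it was at -0.86 at 29 days and at 0 at 30 and 34 days. In gene-rich cells Kcnd2 differed by -5.1, -4.89, 2.91 and -2.24 at 29, 30, 31 and 34 days, and Dpp10 by -2.99, -6.1, 0.59 and -7.61. These values rest on 2 D1 cells and 1 D2 cell at 31 days and on 1 of each at 34 days. Over all cells the Dpp10 difference was -0.36 without the WT D2 cells of 29 days and -0.81 without the WT D1 cells of 30 or of 34 days. It was -2.10 without the WT D2 cells of 30 days.

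**Figure D4:**
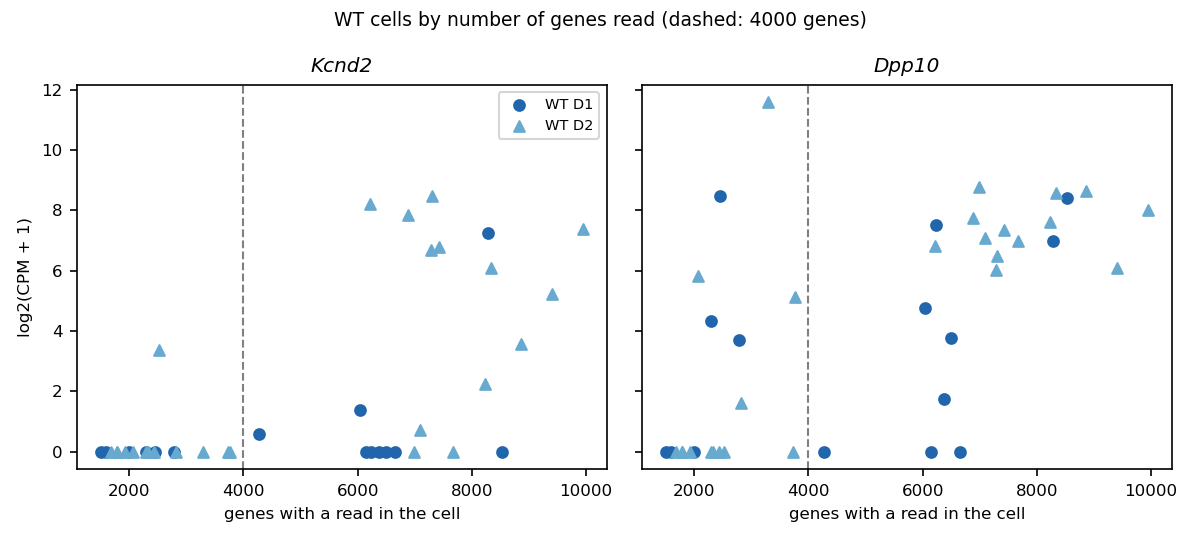
Kcnd2 (left) and Dpp10 (right) on the log2(CPM + 1) scale (vertical axis) against the number of genes with a read in the cell (horizontal axis) for 15 WT D1 and 26 WT D2 cells; the dashed line is at 4000 genes. Right of the line, Kcnd2 is read in 3 of 9 WT D1 and 11 of 13 WT D2 cells and Dpp10 in 6 of 9 and 13 of 13.

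The knockout in D1 cells was read against the 15 WT D1 cells. Dpp10, Kcnip3, Dpp6 and Kcnd2 were higher in Fmr1-/y D1 cells and Kcnip2 was lower. Dpp10 averaged 162 ± 171 CPM in Fmr1-/y D1 and 71.7 ± 124 CPM in WT D1 cells (SD, n = 6 and 15), a difference of 3.55, and 93.2% of measured genes differed by less; without Fmr1-/y D1 cell 6 the Fmr1-/y D1 mean was 93 ± 38 CPM. Kcnd2 averaged 51.4 ± 84.6 CPM in Fmr1-/y D1 and 10.2 ± 39.0 CPM in WT D1 cells, a difference of 2.37, and without Fmr1-/y D1 cell 6 it was 1.42. Kcnip3 differed by 2.45 at 176 ± 191 CPM in Fmr1-/y D1 and 71.1 ± 91.2 CPM in WT D1 cells, and Dpp6 by 2.44. Kcnip2 differed by -1.30; it counted as measured through the WT cells alone, since the 6 Fmr1-/y D1 cells had no read, and without the WT D1 cells of 34 days it was -0.93. Of the 8 measured members 4 were higher and 1 was lower, where 49.6% of the 10792 measured genes were higher and 8.02% lower. The share of higher members is near that of the genes at large; the median was 1.60 over the members and 0.98 over the genes. Relative to that median gene, 4 members were higher and 2 lower (Kcnip2 and Kcnd3, at -2.28 and -1.12), where 27.9% of genes were higher and 25% lower. By summed counts Dpp6 was at 0.08, Kcnip3 at 0.69, Dpp10 at 1.60, Kcnd2 at 3.15 and Kcnip2 at -5.37. As a log2 ratio of mean CPM Dpp10 was at 1.16 and Kcnd2 at 2.22.

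Gene-rich cells kept part of this picture. Dpp10 differed by 3.17 and Kcnd2 by 1.96 between the 6 Fmr1-/y D1 and 9 gene-rich WT D1 cells, with Dpp10 read in 6 of 6 and 6 of 9 cells and Kcnd2 in 3 of 6 and 3 of 9. Kcnip3 was at 0.09 and Dpp6 at 0.78, and Kcnip2 at -2.16. There 2 members were higher and 1 lower past the threshold, where 28.5% of genes were higher and 22.7% lower and the median gene was at 0.14. Against the 3 WT D1 cells of 31 days alone, Kcnd2 was at 0.57, Kcnip3 at 0.91, Dpp6 at 0.92 and Dpp10 at 1.73, and the median gene at 0.44; Kcnip2 was at -2.34 and Kcnip4 at -1.73. Kcnip4 differed by 0.39 over all cells, but by -0.95 in gene-rich cells, -0.86 by summed counts and -1.35 as a log2 ratio of mean CPM. Without the WT D1 cells of 28 days the Kcnip3 difference over all cells was 1.57. Over all cells, 3 of 5 measured astrocyte markers were lower by 1 log2 unit or more in Fmr1-/y D1 cells, with a median of -1.35. Of the 6 listed astrocyte markers 4 had a read in Fmr1-/y D1 cells, so not all 5 measured ones were read in both groups. An astrocyte marker without reads there could only come out lower. Again over all cells, 2 of 6 microglia markers were lower. Of 6 pyramidal markers 4 were higher and 1 lower, with a median of 1.63. Of all measured genes 49.6% were higher and 8.02% lower over all cells, and the median gene was at 0.98. The part of age, of the number of genes read and of these markers in the differences was not tested.

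The knockout in D2 cells was read against the 26 WT D2 cells. Kcnip4, Dpp10, Kcnd3 and Dpp6 were past the threshold on the higher side, and no measured member was lower by 1 log2 unit. Dpp10 and Dpp6 were past it on the higher side in D1 cells as well. Kcnip4 differed by 2.45, with reads in 6 of 7 Fmr1-/y D2 and 17 of 26 WT D2 cells, and its mean CPM was 165 ± 127 in Fmr1-/y D2 and 217 ± 622 in WT D2 cells. Dpp10 differed by 1.51, Kcnd3 by 1.48 and Dpp6 by 1.14, while Kcnd2 differed by 0.09, Kcnip2 by -0.62 and Kcnip3 by -0.90. Of the 7 measured members (Kcnd1 and Kcnip1 were not measured) 4 were higher and 0 lower, where 36.4% of the 11222 measured genes were higher and 6.91% lower; the median was 1.14 over the members and 0.56 over the genes. Relative to the median gene, 1 member was higher (Kcnip4, 1.89) and 2 were lower (Kcnip3, -1.46, and Kcnip2, -1.18), where 20.9% of genes were higher and 19.1% lower. Of 5 measured oligodendrocyte markers 3 were higher as well, with a median of 1.08, and their part was not tested. The direction turned with how cells were combined: by summed counts Dpp10 was at -1.28, Dpp6 at -0.43 and Kcnd3 at -0.37, and as a log2 ratio of mean CPM Kcnip4 was at -0.40 (0.65 without WT D2 cell 10). Kcnd1 had no read in the 7 Fmr1-/y D2 cells, at least 107-fold lower than the 7.64 CPM of the summed WT D2 counts, which came from 3 of 26 cells. Without WT D2 cell 26, which held 550 of the 733 reads, that level was 2.07 CPM and the bound 29-fold.

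Against the 5 WT D2 cells of 31 and 32 days, Kcnip4 was at 2.15, Dpp6 at 2.20, Dpp10 at 1.84, Kcnd3 at 1.56, Kcnd2 at 1.29 and Kcnip3 at -1.93, and the median gene at 0.99. In gene-rich cells only Kcnip4 stayed higher, at 2.17 between 6 Fmr1-/y D2 and 13 WT D2 cells. Kcnip4 averaged 192 ± 114 CPM in the Fmr1-/y D2 and 93.7 ± 112 CPM in the WT D2 cells there. Kcnip3 was at -2.71, Kcnd2 at -1.77 and Kcnd1, measured there through the WT cells alone, at -1.11, and Dpp10, Dpp6 and Kcnd3 lay between -0.36 and -0.21. Kcnip3 averaged 40.6 ± 45.8 CPM in gene-rich Fmr1-/y D2 and 153 ± 126 CPM in gene-rich WT D2 cells. That made 1 member higher and 3 lower of 8, where 14.2% of genes were higher and 30.0% lower and the median gene was at -0.39. Over all cells single cells also mattered: without Fmr1-/y D2 cell 1 Kcnd3 was at 0.99, and without cell 5, which is not gene-rich, Dpp10 was at 2.41 and Dpp6 at 1.81. Without the WT D2 cells of 29 days Dpp10 was at 2.47 and without those of 30 days at 0.73. Dpp6 was below the threshold, between 0.61 and 0.92, without Fmr1-/y D2 cell 1, 2, 3 or 4 or without the WT D2 cells of 31, 34 or 35 days, and it was at 1.81 without cell 6 and 2.00 without the WT D2 cells of 29 days.

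Between the knockout groups Kcnip3 had the largest difference of the 6 measured members. It averaged 176 ± 191 CPM in Fmr1-/y D1 and 34.8 ± 44.6 CPM in Fmr1-/y D2 cells (SD, n = 6 and 7), a difference of 2.89, with 94.0% of measured genes below it. The difference was 2.38 in gene-rich cells and between 2.29 and 4.09 with each cell left out in turn. Dpp6 differed by 1.65, and by 0.97 to 0.99 without Fmr1-/y D1 cell 3, Fmr1-/y D2 cell 5 or Fmr1-/y D2 cell 6, and by 2.78 without Fmr1-/y D1 cell 6. Kcnd2 differed by 0.33 and Dpp10 by 0.72, in place of the -1.95 and -1.32 between WT D1 and D2 cells, though these comparisons were not tested against each other. Of 6 measured members 2 were higher and 0 lower, where 32.9% of the 10990 measured genes were higher and 21% lower, and the medians were 0.53 over the members and 0.29 over the genes. The share of higher members is thus near that of all measured genes. Relative to the median gene, 2 were higher and 1 lower (Kcnd3, -1.09), where 26.5% of genes were higher and 26.8% lower. In gene-rich cells 1 was higher and 2 were lower (Kcnd3 at -1.46, Kcnip4 at -1.45), where 27.5% of genes were higher and 26.2% lower. Over all cells interneuron markers moved in the other direction to Kcnip3, with 0 of 4 measured higher and 3 lower and a median of -2.02. So did oligodendrocyte markers, with 0 of 4 higher and 3 lower and a median of -1.73. Of the 8 listed interneuron markers only 3 had a read in Fmr1-/y D1 cells, so not all 4 measured ones were read in both groups. An interneuron marker without reads there could only come out lower. The part of both marker sets in the Kcnip3 value was not tested.

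Set side by side, the values of Fmr1-/y against WT cells were 2.45 (D1) and -0.90 (D2) for Kcnip3, 2.37 and 0.09 for Kcnd2, 3.55 and 1.51 for Dpp10, 0.39 and 2.45 for Kcnip4, and -0.14 and 1.48 for Kcnd3. The D1 value minus the D2 value was 3.35 for Kcnip3, 2.28 for Kcnd2, 2.04 for Dpp10, -2.05 for Kcnip4 and -1.62 for Kcnd3, where the median over 10203 genes was 0.43. In gene-rich cells these were 2.80, 3.73, 3.53, -3.12 and 0.05. With 1 sample per group the difference between the D1 and D2 values was not tested.

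Other genes tied to the A-type current were read from 3 lists. Of 19 A-type and Kv4-modulating genes (auxiliary subunits, scaffolds and kinases), 6 were higher and 1 lower of 15 measured in Fmr1-/y D1 against WT D1 cells, 5 and 2 of 15 in Fmr1-/y D2 against WT D2 cells, 1 and 2 of 15 in WT D1 against WT D2 cells, and 5 and 2 of 14 between the knockout groups. Of all measured genes 49.6%, 36.4%, 9.21% and 32.9% were higher in these comparisons and 8.02%, 6.91%, 13.2% and 21% lower, and the counts of higher genes in the list are near those shares. Flna, a filamin that anchors Kv4.2 to actin, averaged 202 ± 142 CPM in Fmr1-/y D1 and 42.8 ± 97.3 CPM in WT D1 cells, a difference of 4.60 (3.34 in gene-rich cells). Dlg1, the scaffold SAP97, differed by 2.90 in D1 and by 3.6 in D2 cells with the knockout, but by 1.23 and -0.14 in gene-rich cells. Kcnab1, a cytosolic beta subunit of Kv1 channels, averaged 118 ± 287 CPM in WT D1 and 4.78 ± 14.1 CPM in WT D2 cells, a difference of 2.34, and differed by 3.09 between the knockout groups. Flna differed by -1.70 in WT D1 against WT D2 cells and by 3.16 in Fmr1-/y D1 against Fmr1-/y D2 cells.

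Of 7 further neuronal calcium sensors, relatives of the KChIPs, 6 were measured in each comparison. Past the threshold, 2 were higher and 1 lower in Fmr1-/y D1 against WT D1 cells, and 3 and 1 in Fmr1-/y D2 against WT D2 cells. The counts were 2 and 2 in WT D1 against WT D2 cells, and 2 and 0 between the knockout groups. Of all measured genes 49.6%, 36.4%, 9.21% and 32.9% were higher in these comparisons and 8.02%, 6.91%, 13.2% and 21% lower. Ncs1, which can also bind Kv4 channels, was lower in WT D1 cells: it averaged 12.3 ± 20.1 CPM in WT D1 and 160 ± 320 CPM in WT D2 cells, a difference of -2.35 (-2.27 in gene-rich cells). With the knockout Ncs1 differed by 3.56 in D1 cells, at 82.8 ± 67.8 CPM in Fmr1-/y D1 and 12.3 ± 20.1 CPM in WT D1 cells, and by -2.05 in D2 cells, at 20.9 ± 31.6 CPM in Fmr1-/y D2 and 160 ± 320 CPM in WT D2 cells. In gene-rich cells these were 2.76 and -3.35. Between the knockout groups Ncs1 differed by 3.26. Hpcal1 differed by 2.09 with the knockout in D1 cells (0.89 in gene-rich cells) and by 2.18 between the knockout groups, Ncald by 1.60 with the knockout in D2 cells, and Hpca by 1.96 between the WT groups (0.53 in gene-rich cells).

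There were 6 dipeptidyl peptidase family genes besides Dpp6 and Dpp10, which unlike them encode active peptidases. Of these, 4 were higher and 0 lower of 6 measured with the knockout in D1 cells, and 0 and 0 of 5 in D2 cells. The counts were 0 and 0 of 5 between the WT groups, and 3 and 1 of 6 between the knockout groups. Of all measured genes 49.6%, 36.4%, 9.21% and 32.9% were higher in these comparisons and 8.02%, 6.91%, 13.2% and 21% lower. Dpp7, a lysosomal peptidase, averaged 252 ± 428 CPM in Fmr1-/y D1 and 36.6 ± 79.7 CPM in WT D1 cells, a difference of 4.23. Fap, among the 4 higher genes, was read in 3 of 6 Fmr1-/y D1 and 0 of 15 WT D1 cells; it counted as measured through the knockout cells alone, and its difference there is no bound. Against Fmr1-/y D2 cells, of which 1 of 7 had a read, Fap differed by 2.35. Dpp9 differed by 0.54 in Fmr1-/y D2 against WT D2 cells and by -0.82 between the WT groups, and Dpp7 by 0.98 and 0.81 in the same comparisons. Dpp7 differed by 4.06 between the knockout groups.

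Over the 28 pairs of the 8 members other than Kcnip1, Spearman's rho of log2(CPM + 1) ran from -0.28 to 0.31 with a median of 0.09 across the 34 gene-rich cells, and from -0.13 to 0.52 with a median of 0.23 across all 54 cells, which differ more in the number of genes read. These are descriptions of the cells. By the same measure the genes most like Kcnd2 among 7194 ranked were Phf3 (0.64), Nrp1 (0.61) and Slc35a5 (0.59). Kcnd3 was at 0.31 (place 493) and Dpp10 at 0.26 (place 867), with Dpp6 at 0.10, Kcnip3 at 0.09 and Kcnip4 at 0.01. Within the 26 WT D2 cells, gene-rich or not, rho with Kcnd2 was higher for the members, at 0.61 for Kcnd3, 0.53 for Dpp6, 0.49 for Dpp10 and 0.39 for both Kcnip3 and Kcnip4. Within the 15 WT D1 cells it was 0.18 for Kcnd3, 0.29 for Dpp6, 0.14 for Dpp10, 0.31 for Kcnip3 and -0.14 for Kcnip4. Cells within a group differ in depth and in the number of genes read, which these values share.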

How the data were processed

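The deposited counts are whole-number reads per gene symbol in each cell, made with Trimmomatic, STAR and featureCounts on GRCm38, per the submitters' processing notes; the sources used here give no versions, settings or use of strand. The authors' normalized signal table of 14067 symbols, each cell's counts times 1 factor, served as an alternative scaling. The 9 members had equal counts in the deposited Ensembl table. Of each table, 2 columns matched no sample and were not used, and 1 Fmr1-/y D1 cell labelled as failing quality control was kept out of all comparisons. The header of each cell matched its labels, and no pair of cells held identical counts.

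CPM were counts over each cell's total in genes; log2 values carried a pseudocount of 1 CPM. Replicate numbers only name cells. Exact 95% intervals and the floor of 3 counts cover counting error only, since reads were amplified and carry no molecular identifiers. The animals are not named, so no test between groups was made. Members, lists and measures were chosen with earlier results of these data known. All 9 members are named; from each list of other genes the 2 measured genes of largest difference in each comparison are named, except 1 that is not reported here, and for Kcnd2 the 3 genes of highest rho with reads in at least 50% of gene-rich cells, passing over predicted and mitochondrial genes. Positions, exon lengths and overlaps came from GENCODE annotation of GRCm38 and upstream sequences from RefSeq GRCm38.p6. Alternatives were other pseudocounts, ways to combine cells, cell sets, totals, scalings (TMM of edgeR 4.0.16, size factors of DESeq2 1.42.0), filters, ages and leaving out cells; the gene-rich values within and without single ages, the detection limit of 10 reads the omission of the 1 Fmr1-/y D2 cell that is not gene-rich and levels without a member's highest cell were added after seeing the data. Computations used Python 3.11.15, numpy 2.4.6, pandas 2.3.3, scipy 1.17.1, matplotlib 3.10.9 and R 4.3.3, and the procedure was tested on simulated counts. The simulated cells shared their gene means apart from the genes changed on purpose. The simulation therefore cannot show how cells with few genes read affect the differences.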

Additional observations from a re-analysis of the deposited data

Results flagged for a closer look

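In the groups of 6 and 7 Fmr1-/y cells, 15 sets of 1 member in 1 group with varying values were looked at for a cell far from the others, and 6 held one. The rate of about 1 in 20 that chance gives holds for continuous values; here many cells are at 0, so that 1 cell with reads stands apart by construction, and the number 6 is not set against it. All values are log2(CPM + 1). Kcnd1 in Fmr1-/y D1 was at 7.90 in cell 6 and at 0 in the other 5 cells. Kcnip1 in Fmr1-/y D2 was at 0.57 in cell 3 and at 0 elsewhere, which is 2 reads. Kcnip2 in Fmr1-/y D2 was at 3.19 in cell 4, with the next cell at 0.45. Dpp6 in Fmr1-/y D1 was at 0.0 in cell 6, the cell that alone held Kcnd1. In Fmr1-/y D2 cell 5, the one cell of the group that is not gene-rich, Kcnip4 was at 0.0 and Dpp10 at 0.73, both far below the other 6 cells.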

How the results depend on the processing

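Over all cells the median member difference of Fmr1-/y D2 against WT D2 was 1.14, but -1.21 by summed counts, -0.66 as a log2 ratio of mean CPM and -0.40 in gene-rich cells; in the same 3 settings Kcnd3 was at -0.37, -0.07 and -0.21, Dpp6 at -0.43, -0.06 and -0.31, and Dpp10 at -1.28, -0.98 and -0.36. In Fmr1-/y D1 against WT D1 the median was 1.60, but 0.39 by summed counts, 0.32 in gene-rich cells and 0.35 against WT cells of 31 and 32 days, and in Fmr1-/y D1 against Fmr1-/y D2 it was 0.53, and -0.15 in gene-rich cells. As a log2 ratio of mean CPM Kcnip4 was at -0.40 in Fmr1-/y D2 against WT D2 and at -0.14 in WT D1 against WT D2. The number of members past 1 log2 unit was 5 in Fmr1-/y D1 against WT D1, and 3 in gene-rich cells and 3 against WT cells of 31 and 32 days. In Fmr1-/y D2 against WT D2 it was 4, and 1 with a pseudocount of 10 CPM and 2 by mean CPM. In WT D1 against WT D2 it was 3, and 1 with a pseudocount of 10 CPM, 5 by mean CPM and 5 in gene-rich cells. The causes were not tested. With each knockout cell, or the WT cells of each age, left out, the median and the number ran from 0.73 to 1.91 and 4 to 6 (Fmr1-/y D1 against WT D1), 0.21 to 1.83 and 2 to 5 (Fmr1-/y D2 against WT D2), -0.18 to 0.26 and 3 to 4 (WT D1 against WT D2), and -0.16 to 1.01 and 1 to 4 (Fmr1-/y D1 against Fmr1-/y D2). Of the other values of single members, shares and levels, 768 moved by less than the spread between cells or by under 1.5 times. Another 31 moved by more, and 11 differences past 1 log2 unit changed sign. Signs also changed for 60 values of smaller differences, which are counted among the others. The number 768 is no measure of stability, since the spread between cells is wide. The 768 include Kcnip3 in Fmr1-/y D1 against WT D1 cells, at 2.45 over all cells and 0.09 in gene-rich cells. Its spread was 3.4 log2 units. TMM factors, the authors' normalized values and totals without mitochondrial genes and Rn18s-rs5 moved no number of members past 1 log2 unit by over 1.5 times. With 10 reads as the limit, Kcnd2 counted as read in 3 of 6 Fmr1-/y D1, 4 of 7 Fmr1-/y D2, 1 of 15 WT D1 and 11 of 26 WT D2 cells. No paired analysis was possible because the labels carry no replicate numbers that pair cells and no result comes from a test. Depth limits members with few reads: Kcnd1 and Kcnip1 were read in 7 and 1 of 54 cells, and at 260943 reads, the depth of the shallowest cell, the expected share of WT D1 cells with a Kcnd2 read is 9.88% in place of 20%.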

Other observations

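The Fmr1-/y D1 cell that failed quality control, with 950010 counts and 995 genes read, held 70 reads of Dpp10 (73.7 CPM) and none of the other 8 members. Of all 54 cells, 45 had a read of any of the 4 KChIPs, 43 of Dpp6 or Dpp10 and 37 of any of the 3 Kv4 subunits, and 3 WT D2 cells had no read of any member.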
